A study of Mus musculus with 2 samples.

Results

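Islands of closely spaced regions monomethylated at lysine 4 of histone H3 (H3K4me1) were described in melan-a, an immortalized melanocyte line of the mouse. H3K4me1 regions were joined when neighbours on a chromosome lay at most 2000 bp apart, and the islands described here were chosen by their number of regions, 5 or more. They numbered 1073 of 35328 islands of any size (3.04%) and held 6595 of the 59923 H3K4me1 regions (11.0%). Because the positions of the regions selected the islands, their number, span and gaps are given as a description and not as a finding. The measurement that the selection did not use is the binding of EP300.

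Chromatin immunoprecipitation and sequencing (ChIP-seq) was carried out with antibodies to p300 (EP300) and to H3K4me1. Both samples came from the same untreated line, labelled immortalized melanocytes of strain C57BL/6 Ink4a -/-, so the Ink4a deletion is common to all the data and no control genotype or treatment was analysed here. Each sample stood for 2 replicates. EP300 was represented by a peak list for each replicate, called against its own control library, and H3K4me1 by a single list of regions. After filtering, the EP300 libraries held 31439027 tags in replicate 1 and 32355042 in replicate 2, and gave 8451 and 10351 peaks. The sources used here give no depth for the H3K4me1 libraries. The labels do not tell whether separate cultures were used for the replicates, so their spread may be only technical. Coordinates are in the mouse build mm9, and the genes at the islands were not analysed here.

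H3K4me1 marks the nucleosomes at enhancers, in active and in primed states. EP300 is a histone acetyltransferase and coactivator that transcription factors recruit to enhancers and promoters. Where factors bind, nucleosomes are displaced, so the mark often lies on both sides of a bound site with a dip between. A gap between 2 neighbouring H3K4me1 regions is therefore a place where such a site can lie.

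The islands of 5 or more regions contained 5522 gaps and spanned 9.92 Mb, of which the regions covered 6.02 Mb. The median span was 8300 bp (quartiles 6500 and 10800 bp), with a shortest of 2100 bp and a longest of 50100 bp. Islands of 2 regions, the comparison group, numbered 9663 and had a median span of 1700 bp. Most of the larger islands lay near the lower limit of their definition. There were 512 with exactly 5 regions, 270 with 6, 129 with 7, 79 with 8, 35 with 9 and 48 with 10 or more. Just outside the limit, 1222 islands had 4 regions and a median span of 4900 bp, against 6725 bp for islands of exactly 5.

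The larger islands were built of longer and better-ranked regions than islands of 2. Their regions had a median length of 700 bp against 500 bp. On the authors' ranking of H3K4me1 regions, converted to a percentile on which 100 is the best of the list, the median region stood at 64.5 in the larger islands and at 52.9 in islands of 2. Regions of islands of 3 and of 4 lay between, with median lengths of 550 and 600 bp and median percentiles of 55.4 and 57.7. Gaps of the larger islands and of islands of 2 had similar widths, with a median of 550 bp (quartiles 300 and 1000 bp) against 500 bp (350 and 800 bp). The regions covered a median of 59.3% of the span of a larger island and 68% of the span of an island of 2.

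A gap was counted as holding EP300 when the midpoint of an EP300 peak lay in it. In islands of 5 or more regions, 876 of 5522 gaps (15.9%) held a midpoint of either replicate, fewer than the 18.8% of gaps in all islands of 2 or more regions and the 22.3% of gaps (2159 of 9663) in islands of 2. Replicate 1 placed a midpoint in 11.4% of the gaps of the larger islands (630 gaps, exact 95% interval 10.6% to 12.3%) and in 15.5% of the gaps of islands of 2 (14.7% to 16.2%). Replicate 2 placed one in 11.9% (655 gaps, 11.0% to 12.7%) and in 16.3% (15.6% to 17.1%). The difference was -4.04 percentage points in replicate 1 (95% interval -5.14 to -2.92) and -4.45 points in replicate 2 (-5.56 to -3.31), so it had the same direction in both and was larger than the distance between the replicates. Gaps of 1 H3K4me1 list are not replicates of a condition, so no test over gaps was made, and all intervals here cover counting error only.

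Per island the order was the opposite. At least 1 gap held EP300 of either replicate in 614 of the 1073 larger islands, 57.2% (54.2% to 60.2%), compared with 28.4% of all islands of 2 or more regions and 22.3% of islands of 2, which have a single gap each. The share was 45.2% with replicate 1 alone and 46.8% with replicate 2 alone. Over all islands of 2 or more regions these shares were 20.6% and 21.5%. In 352 of the larger islands (32.8%) a gap held a midpoint of each replicate. This was so in 13.4% of all islands of 2 or more regions and in 9.42% of islands of 2.

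The threshold of 5 regions did not mark a step. The share of gaps with EP300 of either replicate was 22.3% in islands of 2, 17.4% in islands of 3, 16.0% in islands of 4 and 15.9% in islands of exactly 5. Beyond 5 it stayed between 13.9% (10 or more regions) and 18.1% (exactly 8 regions), with intervals that overlapped. The share of islands with EP300 in at least 1 gap was 40.8% at 4 regions, 50.4% at exactly 5 and 77.1% (62.7% to 88.0%) at 10 or more. The number of gaps per island rises with its size by definition.

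**Figure D1:**
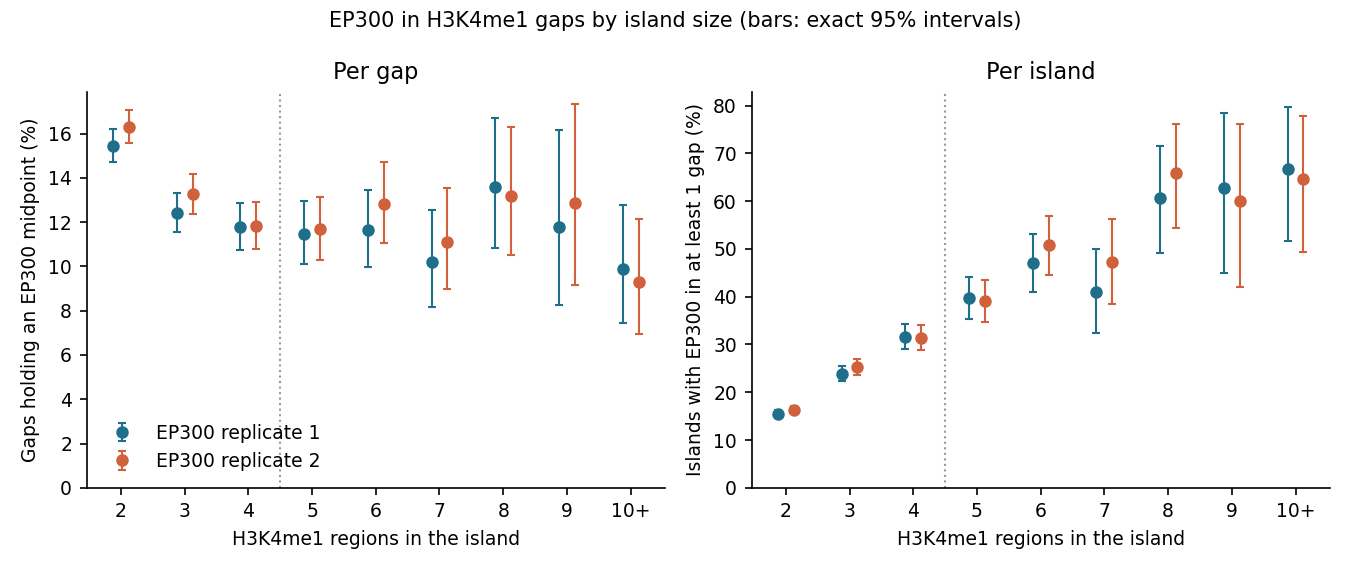
EP300 in gaps by the number of H3K4me1 regions in the island (horizontal axis), as the percentage of gaps with a peak midpoint (left) and of islands with at least 1 such gap (right). Points are the 2 EP300 replicates, bars are exact 95% intervals and the dotted line marks the threshold between 4 and 5 regions. The share per gap is highest in islands of 2 and the share per island is lowest there.

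Gap width was closely related to the presence of EP300. In the larger islands, 7.14% of gaps of 50 to 300 bp held EP300 of either replicate. The share was 18.7% at 350 to 500 bp, 25.4% at 550 to 800 bp, 20.2% at 850 to 1200 bp and 11.4% above 1200 bp. Islands of 2 had the same order of classes at higher levels, from 8.69% in the narrowest gaps to 35.0% at 550 to 800 bp. Every width class was lower in the larger islands, in each replicate. In the narrowest class the interval of the difference included 0 in both replicates (-0.49 points, -1.76 to 0.88, in replicate 1). It did so at 350 to 500 bp in replicate 1 as well (-1.58 points, -3.83 to 0.80). With the classes weighted equally, the difference was -6.25 points for either replicate, close to the -6.48 points over all gaps. The difference was thus nearly as large within width classes as over all gaps.

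The rank of the flanking regions separated the gaps further. The mean percentile rank of the 2 regions beside a gap had a median of 78.0 for gaps of the larger islands with EP300 and 57.4 for those without. In islands of 2 these medians were 65.3 and 47.4. Between the lowest and the highest of 5 classes of flanking rank, the share of gaps with EP300 of either replicate went from 3.55% to 32.2% in the larger islands and from 6.57% to 46.6% in islands of 2. At a flanking rank of 60 to 80 the shares were 15.5% and 30.2%, a difference of -14.6 points (-17.2 to -12.0). With the 5 classes weighted equally the difference was -9.17 points, a comparison added after the data were seen. The larger islands had the lower share in each class and replicate. In the lowest class the interval of the difference included 0 in both replicates, with -1.68 points (-3.61 to 0.90) in replicate 1 and -2.28 points (-4.28 to 0.34) in replicate 2.

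**Figure D2:**
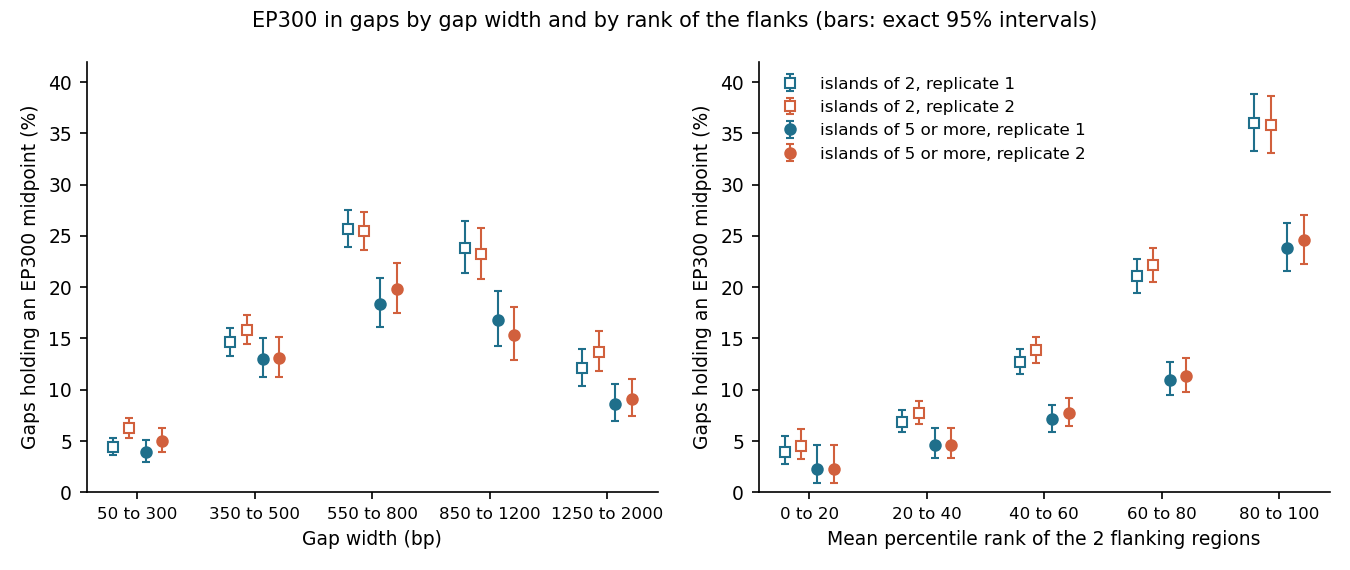
Percentage of gaps holding an EP300 midpoint by gap width in bp (left) and by the mean percentile rank of the 2 flanking H3K4me1 regions, 100 being the best (right). Filled circles are islands of 5 or more regions, open squares islands of 2, colours the 2 EP300 replicates and bars exact 95% intervals. In each class the filled circles lie below the open squares of the same replicate.

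Within the larger islands, a gap beside the best-ranked region held EP300 more often than another gap did. Of the 1807 gaps adjoining the best-ranked region of their island, 432 (23.9%) held EP300 of either replicate. Of the 3715 other gaps, 444 (12.0%) did. Replicate 1 gave 17.5% and 8.45%, and replicate 2 gave 18.6% and 8.59%. The difference for either replicate was 12.0 points (9.76 to 14.2). A single step further from the best-ranked region the share was 9.08% in replicate 1 and 8.09% in replicate 2. Further out it lay between 7.82% and 10.2%, with 8.15% in each replicate at 5 or more steps. Gaps beside the best-ranked region had a median flanking percentile of 74.7 and the others 52.8. The part of this difference in flanking rank in the result was not tested.

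The gap of an island of 2 always adjoins the best-ranked region of its island. Without regard to flanking rank, the gaps beside the best-ranked region of a larger island exceeded islands of 2 by 2.04 points in replicate 1 (0.20 to 3.99), by 2.28 points in replicate 2 (0.40 to 4.28) and by 1.56 points for either replicate (-0.52 to 3.74), at a median flanking percentile of 74.7 against 51.1. The other gaps were lower than those of islands of 2 by a margin of -7.00 points in replicate 1 (-8.12 to -5.82) and -7.72 points in replicate 2 (-8.86 to -6.53). Gaps of islands of 2 with a flanking rank of 60 to 80 held EP300 in 30.2%, above the 23.9% of the gaps beside the best-ranked region, and no comparison of these gaps matched on flanking rank was made.

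**Figure D3:**
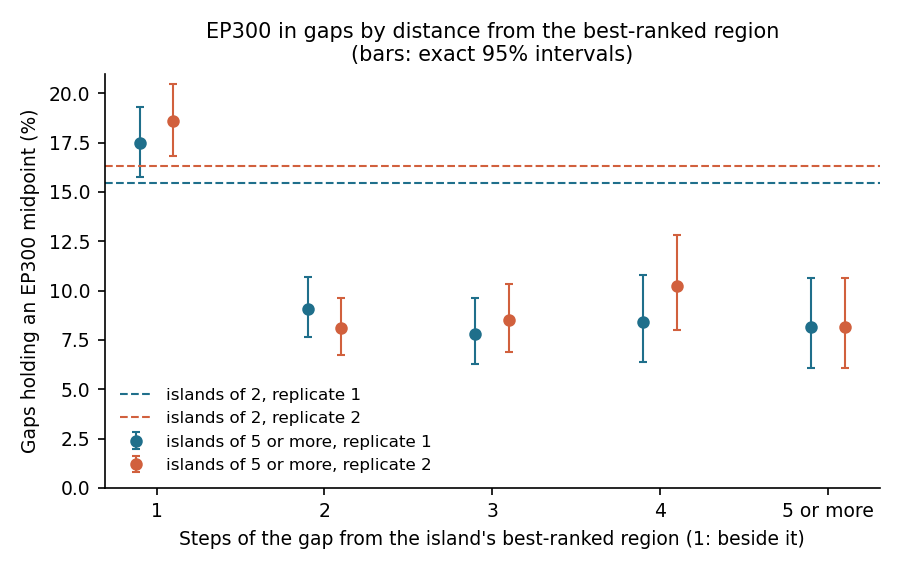
Percentage of gaps of islands of 5 or more regions that hold an EP300 midpoint, by the number of steps from the best-ranked region of the island (1 is a gap beside it). Points are the 2 EP300 replicates with exact 95% intervals, and dashed lines give the share in islands of 2. Gaps beside the best-ranked region reach 17.5% and 18.6%, and all other classes lie between 7.82% and 10.2%.

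Position along the island mattered less. The outermost gaps held EP300 of either replicate in 18.3% of 2146 cases, the second gaps from an end in 13.8% of 2146 and gaps further in in 15.2% of 1230. The outermost gaps exceeded the second by 3.12 points in replicate 1 (1.22 to 5.03) and by 3.45 points in replicate 2 (1.51 to 5.39). Flanking ranks ran the other way, with median percentiles of 58.5, 60.4 and 63.3. Among gaps beside the best-ranked region, 26.6% of outermost and 22.0% of inner gaps held EP300. Among gaps not beside it, 13.9% of outermost and 10.8% of inner gaps did. EP300 midpoints within 1000 bp outside an end of a larger island were rare, at 1.03% of 2146 ends in replicate 1 (0.64% to 1.55%) and 1.86% in replicate 2 (1.33% to 2.53%). At the ends of islands of 2 they were as rare in replicate 1, at 0.98% (0.84% to 1.13%), and were found at 1.15% (1.00% to 1.31%) in replicate 2.

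Counted per length, the larger islands were less dense in EP300 than islands of 2 in their gaps, and not in their regions. Of the EP300 peaks with a midpoint in the span of a larger island, 632 of 835 (75.7%) lay in gaps in replicate 1 and 657 of 940 (69.9%) in replicate 2, although gaps made up 39.3% of the span. Per 100 kb of gap there were 16.2 midpoints in replicate 1 and 16.9 in replicate 2, where islands of 2 had 24.1 and 25.4. Islands of 3 had 18.2 and 19.4, and islands of 4 had 16.5 in each replicate. The lower density in gaps was thus not particular to islands of 5 or more. Per 100 kb of region the larger islands had 3.37 and 4.70, where islands of 2 had 2.79 and 4.08. A few gaps held 2 midpoints of the same replicate, 2 gaps in each.

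The EP300 peaks in the gaps of larger islands carried somewhat more tags. A tag is a sequenced read position, and the tags of a peak are the authors' count. In replicate 1 the 632 peaks in gaps of the larger islands had a median of 61.5 tags (quartiles 46.8 and 92, highest 380), against 56 tags (42 and 76.5, highest 351) for the 1495 peaks in islands of 2. In replicate 2 the medians were 70 tags (50 and 101, highest 401) for 657 peaks and 59 tags (45 and 83, highest 438) for 1578. The whole lists had a median of 43 tags each. The ratio of medians was 1.10 in replicate 1 and 1.19 in replicate 2. The distributions overlapped over nearly their whole range, and the shift was larger in their upper part. In replicate 1, 15.7% of the peaks in the larger islands and 9.83% of those in islands of 2 had more than 110 tags. In replicate 2, 15.4% and 9.89% had more than 121 tags. Islands of 3 and of 4 had medians of 60 and 59 tags in replicate 1, and 65 and 67 in replicate 2. A median above that of islands of 2 was thus not particular to islands of 5 or more.

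The gap peaks of the larger islands were also longer than those of islands of 2. Peaks in gaps of the larger islands were 1.07 and 1.08 times as long at the median in the 2 replicates, and the ratio of tags per kb was 1.05 and 1.03. The ratio of the authors' fold enrichment, the height of the summit over the local background, was 1.07 and 1.04. In gaps with a midpoint of each replicate, the medians were 74 tags against 66 in replicate 1 and 80 against 72 in replicate 2. Such gaps of islands of 4 had medians of 68 and 82 tags. The order of the larger islands over islands of 2 held in each class of gap width in both replicates, with ratios from 1.02 to 1.20. In the larger islands 64.7% of the gap peaks of replicate 1 and 69.3% of those of replicate 2 reached into the regions on both sides. In islands of 2 the shares were 64.3% and 70.7%.

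**Figure D4:**
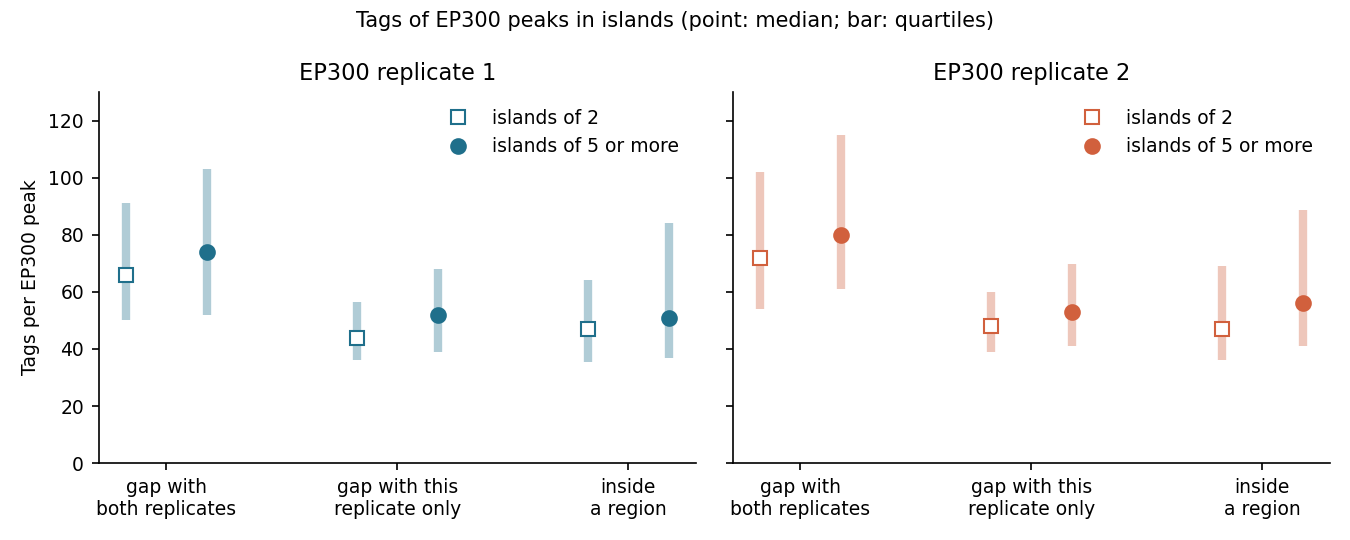
Tags per EP300 peak in islands of 2 regions (open squares) and of 5 or more (filled circles), for peaks in gaps with a midpoint of each replicate, in gaps with a midpoint of the plotted replicate only, and inside regions. Points are medians, bars run from the lower to the upper quartile, and the 2 panels are the EP300 replicates. The median of the larger islands is the higher of each pair, and the bars of each pair overlap.

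The replicates agreed on a gap about as often as they differed. Of the 876 gaps of larger islands with EP300, 409 (46.7%) held a midpoint of each replicate, 221 of replicate 1 only and 246 of replicate 2 only. In islands of 2 the share with each replicate was 42.1%, which was lower by 4.54 points (0.65 to 8.44). In islands of 3 it was 476 of 998 gaps and in islands of 4 it was 277 of 588. These shares were close to that of the larger islands, so the higher share was not particular to them. In the 409 gaps the tags of the replicates were related (Spearman's rho 0.75 over gaps of the same 2 libraries, a description). Replicate 2 had more tags in 272 of them, with a median log2 ratio of replicate 2 to replicate 1 of 0.17 (SD 0.45). The 2 midpoints lay a median of 90.5 bp apart. A midpoint can fall on either side of a region's edge, so a gap with 1 replicate only does not show that the other replicate lacked a peak there.

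EP300 usually occupied few of the gaps of an island. Of the 1073 larger islands, 459 had no gap with EP300 of either replicate, 411 had 1, 154 had 2, 40 had 3, 8 had 4 and 1 had 5. With a midpoint of each replicate required, 300 islands had 1 such gap, 47 had 2 and 5 had 3. In the 154 islands with 2 gaps, the pair were neighbours in 48 (31.2%), were separated by a single gap in 42 and lay further apart in 64. No EP300 midpoint lay anywhere in the span of 353 islands (32.9%), and in another 106 the midpoints lay only in regions. These counts and the spacing of the pairs are given without a reference from other islands, so they are a description only.

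The number of EP300 gaps is limited by the number of gaps, which rises with the number of regions and the span, so a longer span of islands with more EP300 gaps is in part given by construction. The median span was 7150 bp with no EP300 gap, 8500 bp with 1, 9825 bp with 2 and 13900 bp with 3 or more. The median percentile rank of an island's regions had medians of 57.2, 67.6, 74.3 and 83.8 in the same order. The highest H3K4me1 log2 fold change in the island, the authors' value, had medians of 4.44, 4.64, 4.76 and 4.86. As a maximum over the island's regions, this value can also rise with their number by construction. Islands with 3 or more EP300 gaps had a median of 7 regions, and those with none had 5.

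The 10 islands with most regions had between 0 and 3 EP300 gaps each. The island at chr1:78134200-78184299 had 20 regions over 50100 bp, the most regions and the longest span of all. None of its 19 gaps held EP300, and its midpoints lay within regions, at a peak of 92 tags in replicate 1 and at peaks of 52 and 59 tags in replicate 2. Its regions covered 85.2% of the span. The island of 19 regions at chr5:149323100-149359049 had a single EP300 gap of 18, with 30 tags in replicate 1 only. At chr7:29702050-29744349, an island of 18 regions, gap 3 held 72 tags in replicate 1 and 65 in replicate 2, gap 8 held 54 and 46, and gap 9 held 54 in replicate 2 only. The next in size, 14 regions at chr6:114814800-114845099, had EP300 of each replicate in 3 of 13 gaps, with 77 and 68, 124 and 137, and 104 and 96 tags in replicates 1 and 2.

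The other 6 of the 10 islands with most regions had 12 to 14 regions and 1 to 3 EP300 gaps. Those at chr14:75264500-75289049 (75 and 51 tags) and chr2:166487300-166512799 (93 and 108 tags) had a single gap with a midpoint of each replicate. At chr9:57779350-57801599, neighbouring gaps held 49 tags of replicate 2 and 68 tags of replicate 1. The island at chr5:36708500-36729149 had 35 tags of replicate 2 in a single gap, and that at chr2:38368950-38397849 had gaps with 42 and with 54 tags of replicate 1 only. The replicates divided differently at chr3:86946500-86974849. There replicate 1 had peaks of 98 and 103 tags in neighbouring gaps. Across these gaps replicate 2 had a single peak of 256 tags, whose midpoint fell on the region between. Gap 6 of this island held 136 tags of replicate 2, and the overlapping peak of replicate 1, of 71 tags, had its midpoint in a region.

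The islands with most regions and no EP300 midpoint in their span included an island of 12 regions at chr4:140508000-140521249, which covered 33.6% of its 13250 bp. The others had 11 regions each and lay at chrX:93316700-93336849, chr10:57789600-57806149, chr1:93945650-93961499 and chr14:102193400-102206099. Their covered share ran from 48.9% to 60.3%. Absence of a peak here means that no peak passed the authors' threshold in either list.

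**Figure D5:**
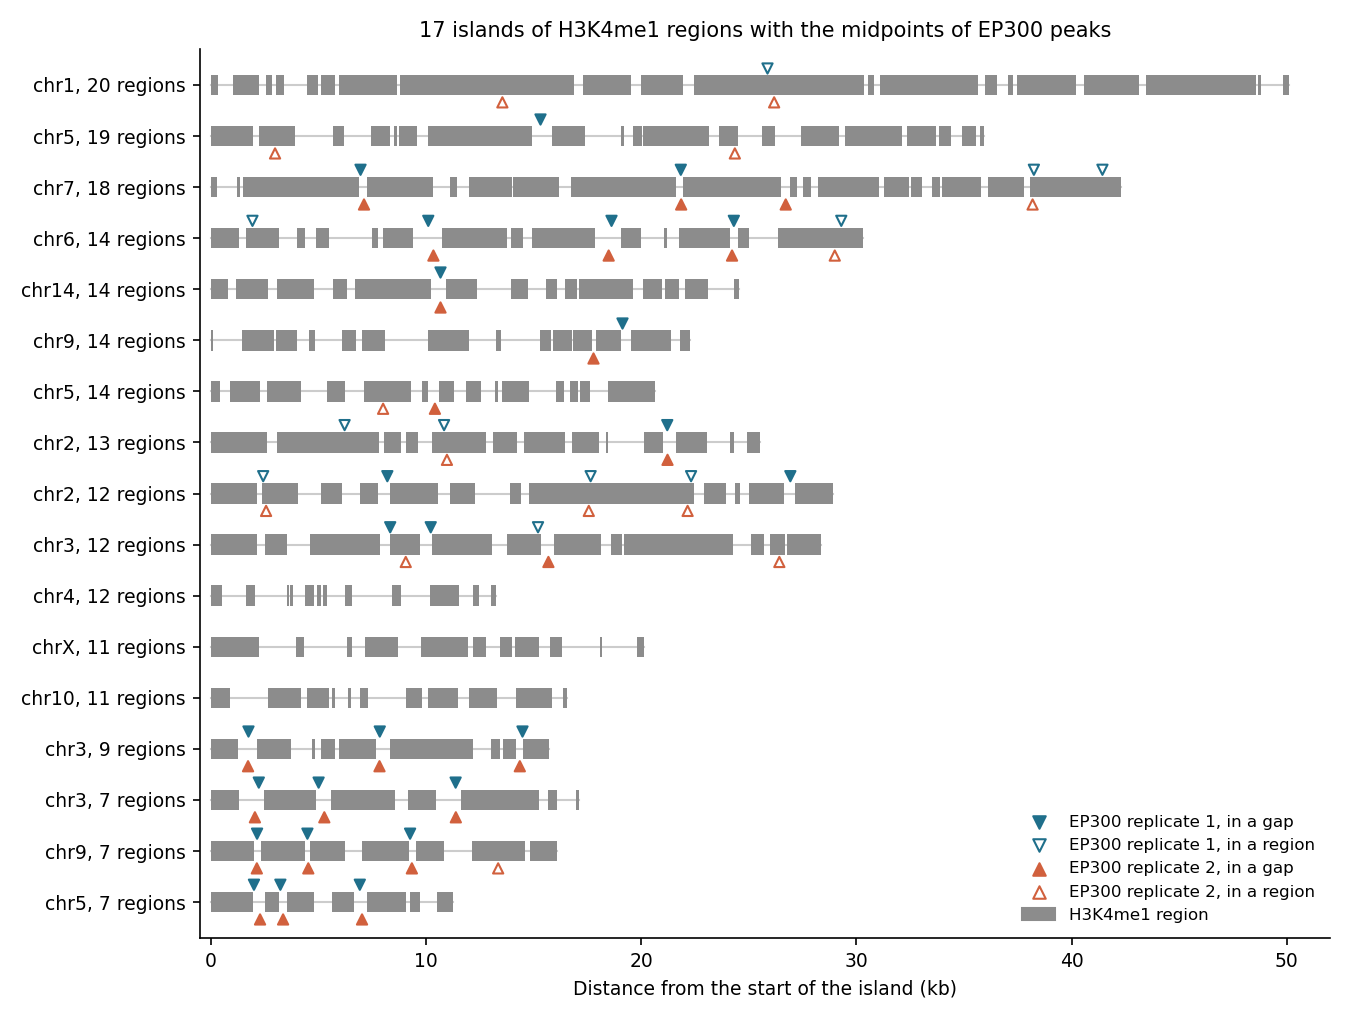
Maps of 17 islands to scale by distance from the island's start in kb: the 10 with most regions, the 3 with most regions and no EP300 midpoint, and others with most gaps holding a midpoint of each replicate. Grey bars are H3K4me1 regions and triangles are EP300 midpoints of replicate 1 (above) and replicate 2 (below), filled in a gap and open in a region. The island of 20 regions has no filled triangle, and the last 4 islands have 3 gaps each with both replicates.

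The islands with most gaps held by each replicate had 3 such gaps, in 5 islands, of which the chr6 island of 14 regions above was 1. The shortest of the 5, with 7 regions at chr5:144428700-144439949, had EP300 in gaps 1, 2 and 4 of 6, counted in the direction of the coordinates, with 73 and 67, 50 and 62, and 33 and 48 tags in replicates 1 and 2. Among these 5 islands, gaps 1, 2 and 4 were also the ones occupied in the others of 7 regions. At chr3:53003750-53020849 they held 79 and 129, 163 and 247, and 48 and 80 tags. At chr9:102624300-102640399 they held 129 and 127, 62 and 65, and 49 and 89 tags. In the island of 9 regions at chr3:79700050-79715749 it was gaps 1, 5 and 8 of 8, with 106 and 100, 93 and 94, and 109 and 69 tags. In these 4 islands the first gap was occupied, unlike in the chr6 island, where it was gaps 6, 9 and 12. The 5 islands were chosen for their EP300 gaps and the gaps are numbered by coordinate, so their places give no general pattern.

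The island with EP300 in 5 gaps, the most of any, lay at chr19:10346650-10377349 and had 10 regions over 30700 bp. It ranks 4 by span and contained the region ranked 5 of 59923. Only 2 of its 5 gaps held a midpoint of each replicate, with 86 and 73 tags in gap 3 and 155 and 157 in gap 4. Replicate 2 alone had midpoints in gap 1 (117 tags) and gap 2 (58 tags), where replicate 1 had midpoints in the adjoining regions at peaks of 184 and 80 tags. Gap 8 held 65 tags of replicate 1.

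The 10 gaps with most tags, averaged over the replicates after scaling to the filtered ChIP tags of each, lay in islands of 5 to 9 regions. The gap at chr7:95592250-95593399, 1150 bp wide in an island of 8 regions, had 380 tags in replicate 1 and 317 in replicate 2. It was the only 1 of 7 gaps with EP300 in its island, whose best region ranked 6152. At chr10:10188050-10189749, in an island of 6 regions, the gap had 281 and 401 tags, and at chr7:122767450-122769049, in an island of 5, it had 297 and 304. The gap at chr14:70501750-70502399 (island of 5 regions) had 231 and 302 tags, that at chr4:99158350-99159799 (6 regions) had 247 and 266, and that at chr3:101304100-101304749 (7 regions) had 277 and 234. Those at chr9:32493200-32493849 (5 regions), chr18:38009100-38009799 (6 regions) and chr18:60829200-60829749 (9 regions) had 239 and 265, 205 and 276, and 236 and 244 tags.

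The remaining gap of these 10, at chr1:78056900-78057349, had 239 and 259 tags and lay in an island of 8 regions, which had 2 other EP300 gaps. The last gap of that island had 188 and 194 tags. In the first gap, replicate 1 had 212 tags, and the replicate 2 peak at the same place, of 262 tags, had its midpoint in the adjoining region.

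Islands with strong EP300 in a pair of gaps included chr6:48968950-48985449, with 130 and 171 tags in gap 1 and 182 and 213 in gap 4. At chr3:95812600-95822999 gaps 3 and 5 had 166 and 202, and 93 and 110 tags, and gap 1 had 79 tags of replicate 1 only. At chr3:132526900-132537699 gap 1 had 185 and 133 tags, gap 3 had 44 tags of replicate 2 only and gap 4 had 139 and 73. The island of 6 regions on chr10 with 281 and 401 tags in gap 4 had 96 and 124 in gap 3.

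A single larger island held loci at which the replicates stood apart by more than 8-fold in tags. At chr15:78981350-78990949, an island of 5 regions that covered 91.1% of its 9600 bp, replicate 1 had peaks of 3164 and 1015 tags with midpoints in regions. The overlapping peaks of replicate 2 had 79 and 37 tags. In replicate 2 the first gap had 109 tags and the second 79, and replicate 1 had no midpoint in any gap of the island. The 3164 tags were the most of any EP300 peak with a midpoint in a region of the larger islands, where the median was 51 in replicate 1. This island enters no median of gap tags in replicate 1.

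Larger islands were spread over all autosomes and the X chromosome. Relative to the share of regions on each chromosome, they were most frequent on chromosome 4 (90 islands, ratio 1.29) and chromosome 3 (68 islands, 1.20) and least frequent on chromosome 17 (26 islands, 0.61). The share of larger islands with EP300 of either replicate in a gap, 57.2% over all, was highest on chromosome 3 and lowest on the X chromosome, which were singled out after the values were seen. It was 72.1% on chromosome 3 (59.9% to 82.3%) and 8 of 27, or 29.6% (13.8% to 50.2%), on the X chromosome. On the other chromosomes it lay between 44.6% (chromosome 7) and 69.2% (chromosome 17). On the X chromosome 5.80% of the gaps of larger islands held EP300 (2.54% to 11.1%), against 15.9% of their gaps over all chromosomes. Shares by chromosome are not given here for smaller islands, so these values are not shown to be particular to the larger ones.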

How the data were processed

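ChIP-seq of EP300 and H3K4me1 in melan-a cells was used as deposited, in mm9 per the submitters' processing notes. Per the file headers, the authors used MACS 1.4.1 20110627 on the 2 EP300 replicates in turn, each with its own control. For each peak the authors gave a count of tags, a significance score (10 times the negative log10 of the p-value), a fold enrichment as a ratio and a false discovery rate in percent (at most 2.14 and 0.56 in replicates 1 and 2, per the file headers' columns). For each H3K4me1 region the deposited values are a rank, a score (3.00 to 5.28) and a log2 fold change (3.14 at the lowest). The aligner, the H3K4me1 caller and the combining of its 2 replicates were not given in the sources used here. H3K4me1 edges lie on a 50 bp grid, so the shortest gap is 50 bp.

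Regions were joined at distances of at most 2000 bp, and each EP300 peak was placed by its midpoint. Islands and lists were chosen with earlier results of these data known. Named islands are the 10 with most regions, the 5 longest, the 10 with most gaps holding a midpoint of each replicate (ties by summed tags of replicate 1), the 10 whose gap has most tags on average over the replicates, scaled to their filtered ChIP tags, the 5 with most regions and no midpoint, and any with a locus more than 8-fold apart between replicates. Shares carry Clopper-Pearson 95% intervals and differences Newcombe 95% intervals. No test over islands or gaps was made, since they come from 1 H3K4me1 list. Alternatives were another joining distance, the upper 50% of regions or peaks, 6 or more regions, EP300 summits, no chromosome 6 and each EP300 replicate alone. Python 3.11.15, pandas 2.3.3, numpy 2.4.6, SciPy 1.17.1, statsmodels 0.14.6 and matplotlib 3.10.9 were used, and the functions were tested on simulated data.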

Additional observations from a re-analysis of the deposited data

How the results depend on the processing

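The share of gaps with EP300 was lower in islands of 5 or more regions than in islands of 2 under each alternative listed in the processing, and differed from the main value of -6.48 points as follows. Joining at 1000 bp gave 416 islands, a difference of -5.78 points (-7.15 over width classes, in the 4 classes with gaps), and shares of 16.4% of gaps and 55.0% of islands. Joining at 3000 bp gave -6.00 points (-5.26 over width classes), 21.6% of gaps in islands of 2 and 58.8% of islands. The upper 50% of H3K4me1 regions left 272 islands, with -11.4 points (-10.8 over width classes), 23.5% against 34.9% of gaps, 68.8% of islands and a tag ratio of 1.05 against 1.14 in the main comparison (the mean of the replicates' ratios on the log2 scale). With 6 or more regions there were 561 islands, 63.5% with EP300. The upper 50% of EP300 peaks gave -3.79 points (-3.73 over width classes), 12.7% against 16.4% of gaps and 49.1% of islands. EP300 summits gave -5.94 points (-5.73 over width classes) and 16.5% of gaps. With each EP300 replicate alone, the difference ran from -4.45 to -4.04 points (-4.40 to -3.97 over width classes), the shares from 11.4% to 11.9% and from 15.5% to 16.3% of gaps, and the share of islands from 45.2% to 46.8%.

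Added after the data were seen, 5 classes of flanking rank gave -9.17 points and 10 classes of width and flanking rank -8.27 points. Restricting the larger islands to gaps beside their best-ranked region turned the difference to 1.56 points. Of 67 values recomputed, 28, among them all without chromosome 6, counted as unmoved, which means within the spread between replicates, within 1.5 times for the number of islands, or within the 95% interval of 0.65 to 8.44 points for the share of EP300 gaps with both replicates. The last, 4.54 points in the main comparison, ran from 3.24 points (upper 50% of H3K4me1 regions) to 7.26 points (EP300 summits). Another 38 values moved further without turning and 1 turned. Each EP300 replicate alone and the upper 50% of EP300 peaks use only part of the peaks. Their shares of gaps and of islands therefore cannot rise, by construction. The cause of the other moves and of the turn was not tested. No paired analysis of replicates was possible because H3K4me1 was represented by a single list for its 2 replicates, and no test was made. The depth and the calling threshold of each EP300 list limit what counts as an empty gap. The fewest tags of a called peak were 21 in either list. A gap counted as empty may still hold binding that did not pass the authors' threshold.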
